A study of Mus musculus with 12 samples.

Results

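The 8 genes described here take part in the handling of pyrophosphate, of the nucleotides it comes from or of phosphate: Alpl, Enpp1, Ank, Nt5e, Phospho1, Abcc6, Ppa1 and Entpd1. They were chosen by gene name, and all 8 were found among the 26728 gene names that the day 1 and day 14 count tables of the series share. The libraries are RNA-seq of primary vascular smooth muscle cells (VSMC, the contractile cells of the vessel wall) from mouse aorta, in a study of Nr4a3 loss and vascular calcification. Nr4a3 encodes an orphan nuclear receptor. There were 4 groups of 3 libraries: Nr4a3 knockout (KO) cells at day 1, KO cells at day 14, wild-type (WT) cells at day 1 and WT cells at day 14. By the culture protocols all 4 groups grew in DMEM/F12 medium with fetal bovine serum and 10 mM beta-glycerophosphate (β-GP, an organic phosphate donor used to make cultures mineralise), whereas the treatment label reads β-GP for KO cells and none for WT cells. If the label is right, genotype and β-GP cannot be told apart. The labels state neither which part of Nr4a3 was removed nor whether the replicates came from separate animals or cultures, so the p-values cover no more than the variation among these libraries, part or all of which may be technical. The sources used here give neither strain nor age.

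Pyrophosphate binds to nascent hydroxyapatite and blocks its growth, so the balance between its formation and its hydrolysis is a main brake on mineral deposition in the arterial wall. Enpp1 cleaves extracellular ATP into AMP and pyrophosphate, Ank (the mouse progressive ankylosis protein, called ANKH in humans) passes pyrophosphate and ATP out of the cell, and Abcc6 mediates ATP release, mainly in liver. Alpl, the tissue-nonspecific alkaline phosphatase, hydrolyses pyrophosphate to phosphate. Phospho1 frees phosphate from phosphocholine and phosphoethanolamine inside matrix vesicles, and Ppa1 is the soluble pyrophosphatase of the cytosol. Entpd1 (CD39) degrades ATP and ADP to AMP, and Nt5e (CD73) converts AMP into adenosine.

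At day 1 the KO cells had far more RNA of the phosphatase Alpl than WT cells and less RNA of Enpp1, Ank and Nt5e. At day 14 the first 3 of these differences had the opposite direction: Alpl was lower in KO cells, while Enpp1 and Ank were higher. Nt5e was lower in KO cells at both days. Phospho1 was lower in KO cells at day 14, Ppa1 passed no test of KO against WT, and Abcc6 and Entpd1 had too few reads to be tested. Enpp1 in KO cells at day 14 averaged 30.6 times its level in WT cells at day 14, in counts normalised to library size (CPM).

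**Figure D1:**
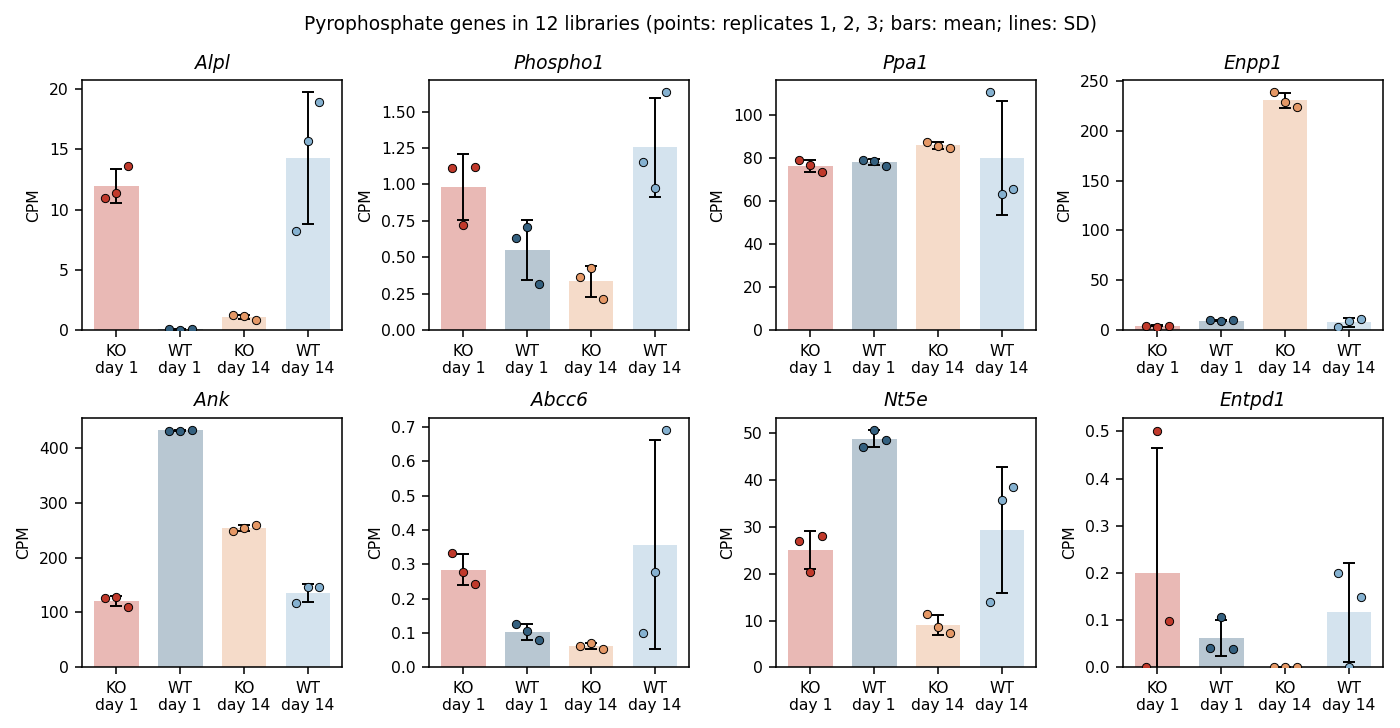
Normalised expression of the 8 genes in each of the 12 libraries, in CPM, by genotype and day; points are libraries and bars with lines are group means ± SD (n = 3). Alpl was near 0 in WT cells at day 1, and Enpp1 lay between 223 and 239 CPM in KO cells at day 14, above every other group.

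The library totals ran from 17143281 to 20091307 counts in KO cells at day 1 and from 14369933 to 18797157 in KO cells at day 14, against 24929624 to 30105118 in WT cells at day 1 and 13848199 to 19519654 in WT cells at day 14. Replicate 1 of the WT cells at day 14 stood apart from the other libraries of its group (chi-square per gene 32.5 and 46.1, against 8.57 between the others), so results that it moves are given also without it. Nr4a3 was lower in KO libraries at both days, with a log2 fold change of -1.02 ± 0.21 (SE) at day 1 (edgeR quasi-likelihood test, adjusted p = 8.55e-04) and of -2.27 ± 0.19 at day 14 (adjusted p = 2.60e-05). At day 1 its mean was 2.08 CPM in KO and 4.25 CPM in WT cells. It still had 34.3, 60.1 and 54.5 CPM in KO cells at day 14, against 238, 256 and 217 CPM in WT cells at day 14. KO cells at day 14 thus had more Nr4a3 RNA than WT cells at day 1 (log2 fold change 3.54 ± 0.18, adjusted p = 6.49e-10). Acta2 was abundant in every group, its median at day 1 being 660 CPM in KO against 283 CPM in WT cells. The defining contractile marker Tagln, however, was at most 0.565 CPM and Myh11 at most 0.628 CPM, and Myocd had no count in WT cells at day 1.

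Alpl, the enzyme that removes extracellular pyrophosphate, had 10.9, 11.4 and 13.6 CPM in the KO libraries of day 1, against 0.0419, 0 and 0.0793 CPM in the WT libraries of that day. In reads, these were 197, 205 and 279 counts in KO against 1, 0 and 2 in WT. The groups did not overlap, and the WT level rested on 3 reads in all. The ratio of the summed normalised counts was 310.6, with a 95% counting interval of 105.8 to 1509.8 that covers counting error only. The fitted log2 fold change was 8.08 ± 0.35 (SE, adjusted p = 7.12e-10); it was 7.48 without WT replicate 2 and 8.91 without WT replicate 3. At day 14 the order was turned round. The KO libraries had 1.22, 1.13 and 0.863 CPM and the WT libraries 8.20, 15.7 and 18.9 CPM, with no overlap (log2 fold change -3.75 ± 0.36, adjusted p = 5.77e-05). Since the libraries are of bulk RNA, fewer cells that express a gene and less of its RNA per cell cannot be told apart here or in any result that follows.

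Ordered by mean level, Alpl was at 14.3 ± 5.49 CPM in WT cells at day 14, 11.98 ± 1.42 in KO cells at day 1, 1.07 ± 0.184 in KO cells at day 14 and 0.0404 ± 0.0397 in WT cells at day 1 (SD, n = 3 each). The pair of highest means did not differ beyond their spread (KO day 1 against WT day 14, log2 fold change -0.25 ± 0.25, adjusted p = 0.548). KO cells at day 14 were below KO cells at day 1 (-3.49 ± 0.32, adjusted p = 3.18e-07) and above WT cells at day 1 (4.56 ± 0.69, adjusted p = 6.53e-05; 5.38 without WT day 1 replicate 3). Each day is a table of its own, so in every comparison between days the day and the table cannot be told apart.

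The 4 promoter windows shown here belong to the 3 genes whose difference between KO and WT changed direction; each holds 250 bases before and 50 after a transcription start, written 5′ to 3′ on the gene's strand, from RefSeq (GRCm38.p6). Capitals mark the matches to 4 motifs searched on both strands: AAAGGTCA (NBRE, the monomer site of NR4A receptors), AGGTCA (the core hexamer, which lies within the NBRE), then GGGCGG, known as the GC box, and TATAAA, known as the TATA box. The windows are chr4:137796335-137796634 and chr4:137766426-137766725 for the pair of Alpl starts, chr10:24712110-24712409 for Enpp1, all 3 on the minus strand, and chr15:27466427-27466726 for Ank on the plus strand.
Alpl, upstream start: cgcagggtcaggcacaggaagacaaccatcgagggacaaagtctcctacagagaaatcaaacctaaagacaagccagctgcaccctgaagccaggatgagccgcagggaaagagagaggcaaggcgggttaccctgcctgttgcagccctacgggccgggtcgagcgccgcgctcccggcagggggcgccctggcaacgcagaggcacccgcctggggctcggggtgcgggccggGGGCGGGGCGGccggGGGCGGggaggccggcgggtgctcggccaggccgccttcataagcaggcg
Alpl, downstream start: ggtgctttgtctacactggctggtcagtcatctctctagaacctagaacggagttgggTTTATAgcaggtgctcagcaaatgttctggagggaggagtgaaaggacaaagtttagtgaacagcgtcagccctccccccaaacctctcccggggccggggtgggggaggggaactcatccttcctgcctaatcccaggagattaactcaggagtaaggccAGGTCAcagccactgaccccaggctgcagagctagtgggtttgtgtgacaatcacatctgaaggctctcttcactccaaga
Enpp1: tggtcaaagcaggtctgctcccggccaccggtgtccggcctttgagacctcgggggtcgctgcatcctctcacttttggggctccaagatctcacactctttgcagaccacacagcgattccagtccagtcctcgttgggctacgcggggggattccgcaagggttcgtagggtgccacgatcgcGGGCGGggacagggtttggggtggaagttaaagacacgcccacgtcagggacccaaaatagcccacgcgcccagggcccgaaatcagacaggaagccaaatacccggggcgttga
Ank: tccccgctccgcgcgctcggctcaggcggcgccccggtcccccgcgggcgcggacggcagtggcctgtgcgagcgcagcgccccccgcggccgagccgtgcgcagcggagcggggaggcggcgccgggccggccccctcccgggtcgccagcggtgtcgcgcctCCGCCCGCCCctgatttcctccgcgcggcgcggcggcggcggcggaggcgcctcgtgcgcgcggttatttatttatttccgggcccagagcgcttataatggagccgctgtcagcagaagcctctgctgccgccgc

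The upstream Alpl window held 3 GC boxes and was 70.0% G and C. Its downstream window was 54.3% G and C and held 1 AGGTCA hexamer and 1 TATAAA match on the reverse strand. Enpp1 had 1 GC box and Ank had 2, and the Ank window, at 78.0% G and C, was richer in these bases than 98.1% of all promoters in the table. The NBRE was in none of 9 windows of 7 of the genes, and in 495 of 32851 promoters (1.51%) of the whole table; Abcc6 is named only. The hexamer was in 1 of the 9, against 16.3% of all promoters, the GC box in 6 of the 9, against 35.7%, and the TATA box in 1 of the 9, against 13.6%. These matches describe the letters in the windows, and the absence of a match says only that those letters are not in that window.

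Enpp1, which makes pyrophosphate, had 4.39, 3.39 and 4.29 CPM in KO libraries at day 1, against 9.73, 9.06 and 9.60 CPM in WT libraries at day 1. All KO values lay below all WT values (log2 fold change -1.22 ± 0.15, adjusted p = 1.31e-05). At day 14 the KO libraries had 239, 229 and 223 CPM, against 2.50, 8.72 and 11.4 CPM in WT libraries. The groups were far apart, and WT replicate 1 was the lowest library (log2 fold change 4.93 ± 0.41, adjusted p = 2.65e-05). In KO cells the level at day 14 was 57.3 times that at day 1 (log2 fold change 5.84 ± 0.33, adjusted p = 1.51e-09). In WT cells day 14 and day 1 overlapped (-0.34 ± 0.31, adjusted p = 0.376), except that without WT day 14 replicate 3 the difference was called (-0.81, adjusted p = 0.0340). The order of the group means was 230.4 ± 7.78 CPM in KO cells at day 14, 9.46 ± 0.356 in WT cells at day 1, 7.54 ± 4.56 in WT cells at day 14 and 4.02 ± 0.548 in KO cells at day 1. Only the first of these steps was past the test (KO day 14 over WT day 1, 4.61 ± 0.29, adjusted p = 7.99e-09).

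Ank, the exporter, was the most abundant of the 8 in every group per kilobase of exon, at 33.5 CPM per kb in KO and 119.6 in WT cells at day 1 and at 70.5 in KO and 37.7 in WT cells at day 14. Its CPM values were 126, 127 and 109 in KO libraries at day 1, against 430.3, 432 and 433 in WT libraries at day 1. The WT libraries lay within 3 CPM of each other and far above the KO libraries (log2 fold change -1.83 ± 0.06, adjusted p = 1.15e-10). At day 14 the KO libraries had 248.7, 255 and 260 CPM and the WT libraries 117, 146 and 146 CPM. Every KO value was then above every WT value (0.89 ± 0.10, adjusted p = 1.73e-04). The order was WT day 1, KO day 14, WT day 14 and KO day 1. KO cells at day 14 were below WT cells at day 1 (-0.76 ± 0.09, adjusted p = 4.29e-06), and the difference between KO cells at day 1 and WT cells at day 14, the lowest pair, was within their spread (-0.17 ± 0.09, adjusted p = 0.225).

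Abcc6, the other transporter, was close to the limit of detection in these cells. It had 6, 5 and 5 counts in KO libraries at day 1 against 3, 3 and 2 in WT libraries, and 1, 1 and 1 in KO libraries at day 14 against 2, 4 and 14 in WT libraries. KO lay above WT at day 1 and below it at day 14, and 1 WT library held most of the counts of its group at day 14. From the summed counts the KO to WT ratio was 2.74 at day 1 (95% counting interval 1.10 to 7.39) and 0.166 at day 14 (0.0317 to 0.561). The gene did not pass the filter on low counts. With no filter neither day was called (adjusted p = 0.337 at day 1 and 0.116 at day 14), while the change between the days was (-3.81, adjusted p = 0.0254).

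Phospho1, the phosphatase of matrix vesicles, was low throughout. It had 1.11, 0.723 and 1.12 CPM in KO libraries at day 1 against 0.629, 0.708 and 0.317 in WT libraries, which is 8 to 23 counts a library. The KO values lay just above the WT values and the difference was not past the test (0.84 ± 0.42, adjusted p = 0.0986). At day 14 the KO libraries had 0.365, 0.424 and 0.216 CPM and the WT libraries 1.15, 0.977 and 1.63 CPM, with no overlap (-1.93 ± 0.43, adjusted p = 0.00580). Exons of Phospho1 overlap exons of Zfp652 on the same strand and of Abi3 on the opposite strand, and whether the counting used strand is not given, so these few reads are of uncertain origin. In the order WT day 14, KO day 1, WT day 1 and KO day 14, no pair of neighbours was past the test (adjusted p = 0.595, 0.0986 and 0.219).

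Ppa1, the cytosolic pyrophosphatase, kept a nearly even level. Its values were 78.9, 76.6 and 73.3 CPM in KO against 79.0, 78.5 and 76.3 CPM in WT libraries at day 1, and 87.5, 85.3 and 84.3 CPM in KO against 110.5, 63.4 and 65.5 CPM in WT libraries at day 14. The groups overlapped at both days (log2 fold change -0.02 ± 0.06, adjusted p = 0.758 at day 1, and 0.09 ± 0.19, adjusted p = 0.729 at day 14). The highest value of all was that of WT day 14 replicate 1. Without that library the day 14 difference was 0.38 (adjusted p = 2.77e-04), so 1 library decides this result. No neighbouring group means of Ppa1 differed beyond their spread with all libraries in.

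Nt5e, which makes adenosine from AMP, had 26.9, 20.4 and 27.98 CPM in KO libraries against 47.1, 50.8 and 48.6 CPM in WT libraries at day 1. The KO values were all below the WT values (-0.95 ± 0.10, adjusted p = 4.69e-06). The day 14 values were 11.4, 8.54 and 7.33 CPM in KO and 14.01, 35.7 and 38.5 CPM in WT libraries. Here too the groups were apart, and WT replicate 1 was the nearest to the KO libraries (-1.70 ± 0.36, adjusted p = 0.00423). Nt5e was lower at day 14 than at day 1 in KO cells (-1.47 ± 0.29, adjusted p = 5.32e-04). In WT cells the same step was -0.74 ± 0.26 (adjusted p = 0.0278), and it lost its call without any 1 of the WT day 1 libraries (adjusted p = 0.0513 to 0.0691). The order ran from WT day 1 over WT day 14 and KO day 1, which did not differ beyond their spread (adjusted p = 0.628), down to KO day 14.

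Entpd1, the ecto-enzyme upstream of Nt5e, had 0, 9 and 2 counts in KO libraries at day 1 against 1, 3 and 1 in WT libraries. At day 14 it had no count in the 3 KO libraries, against 4, 0 and 3 counts in WT libraries. The 95% counting interval of the KO level reached up to 0.0751 CPM over the group. The libraries overlapped, and the 95% counting interval of the KO to WT ratio at day 14 reached up to 0.770. It did not pass the filter on low counts, and with no filter it was not called at day 1 (adjusted p = 0.389) or at day 14 (adjusted p = 0.147).

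At day 1, 4 of the 6 tested genes were called at an adjusted p below 0.05 (1 higher, 3 lower in KO cells), where 60.8% of all 15368 tested genes were called, 30.6% higher and 30.2% lower. At day 14, 5 of 6 were called (2 higher, 3 lower), where 46.4% of 14905 genes were, 22.7% higher and 23.7% lower. The share of the 8 genes that was called is thus near the background at day 1, where most genes differed, and it is the sizes and directions that describe them. The KO and WT libraries of 5 of the 6 tested genes did not overlap at day 1, as for 66.7% of all tested genes, and those of 5 of 6 did not at day 14, as for 58.1%. These counts too are not particular to the genes described. The median log2 fold change of all tested genes was 0.01 at day 1 and -0.00 at day 14. With scaling by library size alone, all tested genes moved up by 0.12 at day 1, and 61.7% of the calls were higher in KO, against 50.4% with trimmed mean scaling.

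**Figure D2:**
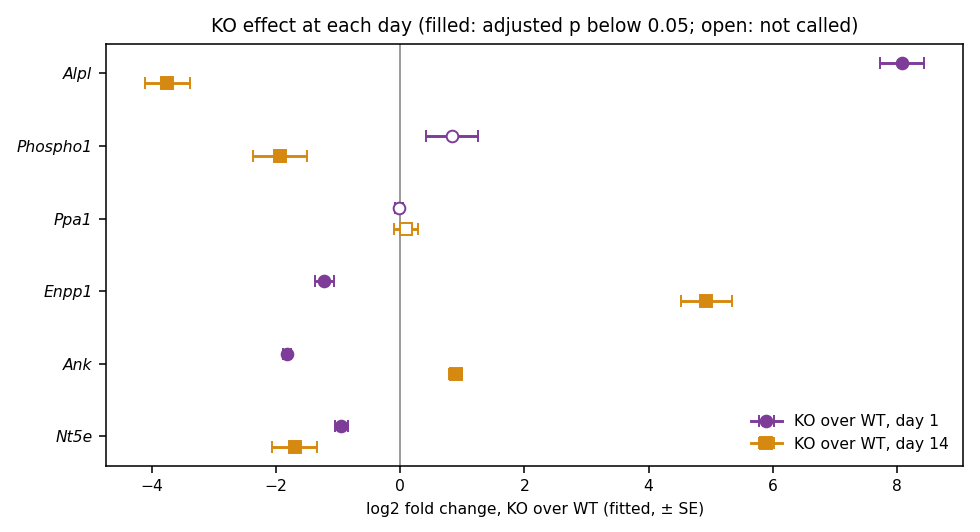
Log2 fold change of KO over WT at day 14 and at day 1 for the tested genes, with bars of 1 SE from the edgeR fit of each day. Alpl was at 8.08 at day 1 and -3.75 at day 14, Enpp1 at -1.22 and 4.93, Ank at -1.83 and 0.89, while Nt5e was below 0 at both days.

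The KO effect itself was tested for a change between the days, as the difference of the day 14 and day 1 effects in a fit of all 12 libraries. It fell by 11.79 on the log2 scale for Alpl (SE 0.59, adjusted p = 2.43e-10; -11.20 without WT day 1 replicate 2 and -12.60 without WT day 1 replicate 3) and by 2.75 for Phospho1 (SE 0.62, adjusted p = 0.00134). It grew by 6.17 ± 0.44 for Enpp1 (adjusted p = 1.14e-08) and by 2.74 ± 0.13 for Ank (adjusted p = 9.95e-11). The change was not past the test for Nt5e (-0.73 ± 0.39, adjusted p = 0.118) or Ppa1 (0.13 ± 0.22, adjusted p = 0.618). Both of these were called without WT day 14 replicate 1, at -1.10 (adjusted p = 4.81e-05) for Nt5e and 0.42 (adjusted p = 4.46e-04) for Ppa1. Thus 4 of 6 genes were called (2 upward, 2 downward), where 60.1% of 15973 genes were, 29.5% upward and 30.5% downward. Library-size scaling alone moved the median change of all genes by -0.21, and 37.9% of the calls were then upward, against 49.2%. Of the genes called at both days, 3 of 4 here had opposite directions (Alpl, Enpp1 and Ank), as had 3883 of 4732 (82.1%) among all genes.

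The differences between the days were called in opposite directions in KO and in WT cells for Alpl, Ank and Phospho1, by the separate test of each genotype. In KO cells at day 14 against day 1, Enpp1 and Ank were higher (5.84 and 1.07 ± 0.09, adjusted p = 8.94e-08 for Ank) and Alpl, Nt5e and Phospho1 were lower (Phospho1 -1.57 ± 0.47, adjusted p = 0.0106, but 0.0611 without KO day 14 replicate 3). That is 5 of 6 tested genes, where 54.8% of all genes were called. In WT cells at day 14 against day 1, Alpl was higher by 8.30 ± 0.48 (adjusted p = 2.61e-09; 7.71 without WT day 1 replicate 2 and 9.11 without replicate 3), Phospho1 was higher by 1.18 ± 0.40 (adjusted p = 0.0231), Ank was lower (-1.66 ± 0.09, adjusted p = 1.14e-09) and Nt5e was lower. These are 4 of 6, where 51.9% of all genes were called. The Phospho1 call was lost without WT day 1 replicate 1 or 3 or WT day 14 replicate 3 (adjusted p = 0.0522 to 0.118), and only Alpl and Ank among the 6 kept theirs whichever library of the pair of groups was left out. Library-size scaling alone moved the median of all genes by 0.13 in this comparison, with 62.7% of the calls higher at day 14, against 49.7%.

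KO cells at day 1 and WT cells at day 14 were alike over all genes, with a median Pearson correlation of log2 CPM across genes, which are not independent replicates, of 0.974 over 9 pairs of libraries, against 0.932 between KO and WT cells at day 1 and 0.975 within WT cells at day 14. Nr4a3 itself differed between these groups (log2 fold change -6.82 ± 0.21, adjusted p = 4.84e-11). The libraries of all 6 tested genes overlapped between these groups, where those of 20.5% of all tested genes did not. Here edgeR called 0 of 6, where it called 9.78% of all genes. With so low a share among all genes, a count of 0 of 6 says little about these genes. At an unadjusted p below 0.05, 1 of the 6 passed (Enpp1, -0.89 ± 0.35, adjusted p = 0.114), and DESeq2 called 0. The lack of calls rests on WT day 14 replicate 1, with which 1562 of 15973 genes were called. Without it 5 of 6 were called, with 5538 of all genes: Enpp1 at -1.33 (adjusted p = 5.17e-07), Nt5e at -0.56 (adjusted p = 0.00325), Alpl at -0.53 (adjusted p = 0.0180), Ank at -0.27 (adjusted p = 0.00448) and Ppa1 at 0.25 (adjusted p = 0.00794). For KO cells at day 14 against WT cells at day 1, the other crossed pair, 4 of 6 genes were called, where 50.7% of all genes were: Alpl and Enpp1 were higher, Ank and Nt5e (-2.43 ± 0.29, adjusted p = 6.24e-06) lower.

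**Figure D3:**
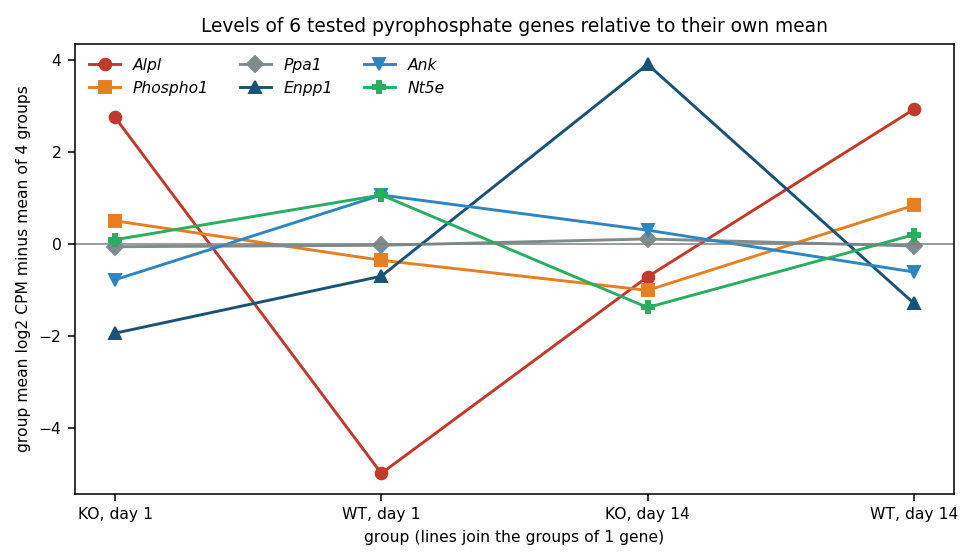
Group means of log2 CPM for each tested gene after subtraction of that gene's mean over the 4 groups, in log2 units. Enpp1 was at 3.91 in KO cells at day 14, Alpl at -4.98 in WT cells at day 1, and Ppa1 stayed near 0.

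The genes whose 4 group means were most like those of each member, by the root mean square difference of centred log2 CPM among 10901 or 10902 named genes, are given as a description over 4 groups. For Alpl they were Dthd1 (0.63 log2 units) and Ggt1 (0.65), and for Enpp1 they were Casp1 (0.33) and Serpinb2 (0.39). Ggt1 averaged 14.2 CPM in KO and 0.0904 CPM in WT cells at day 1, and 0.628 CPM in KO and 18.5 CPM in WT cells at day 14. Serpinb2 averaged 6.93 CPM in KO and 18.1 CPM in WT cells at day 1, and 213 CPM in KO and 8.60 CPM in WT cells at day 14. Nearer neighbours were found for Ank, with Unc13a (0.0570) and Alcam (0.0652), and for Nt5e, with Lancl3 (0.0994) and Dcn (0.132). The nearest to Phospho1 were Hspb1 (0.00793) and Mpp1 (0.0291), and to Ppa1 Sccpdh (0.00964) and Rfx1 (0.0103). No member was among the nearest genes of another, but this says little. Alpl, Phospho1, Abcc6 and Entpd1 were below the level required of a neighbour, and only 2 genes were kept per member.

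Among 63 further genes of pyrophosphate, nucleotide and phosphate handling found by name, 47 could be tested at day 1, of which 11 (23.4%) were higher and 18 (38.3%) lower in KO cells. At day 14, 48 could be tested, of which 21 (43.8%) were higher and 8 (16.7%) lower. Against all genes, the share of lower genes at day 1 and of higher genes at day 14 was above the background given above. The lists were chosen with earlier results of these data known, and no test of them was made.

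**Figure D4:**
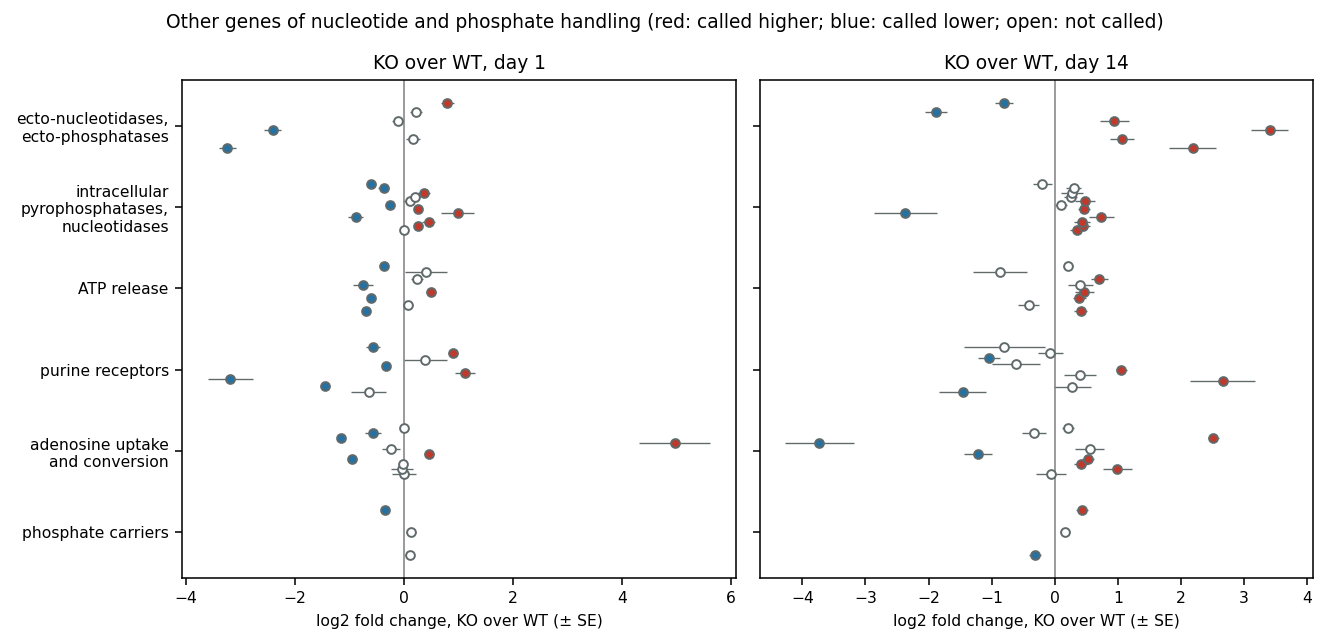
Log2 fold change of KO over WT at day 1 and at day 14 for each tested gene of 6 lists around pyrophosphate, nucleotide and phosphate handling. Bars are 1 SE from the edgeR fit of each day. Red points were called higher, blue points were called lower and open points were not called. Among ecto-enzymes 4 of 6 were higher at day 14 and 1 of 6 at day 1; in ATP release 4 of 8 were lower at day 1 and none at day 14.

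Of the ecto-nucleotidases and ecto-phosphatases outside the 8, 1 of 6 was higher and 2 were lower in KO cells at day 1, and 4 of 6 were higher and 2 lower at day 14. Enpp3, a relative of Enpp1 and its neighbour on chromosome 10, averaged 2.99 ± 0.616 CPM in KO and 16.1 ± 1.08 in WT cells at day 1, and 23.1 ± 1.34 in KO and 2.13 ± 1.08 in WT cells at day 14 (SD, n = 3). Like Enpp1 it was lower in KO cells at day 1 (-2.41 ± 0.15, adjusted p = 2.85e-08) and higher at day 14 (3.41 ± 0.29, adjusted p = 3.12e-05). Acpp, the transmembrane acid phosphatase that also hydrolyses AMP, went the same ways, at -3.24 (adjusted p = 2.51e-09) and 2.18 (adjusted p = 0.00132). Smpdl3b was higher by 0.80 at day 1 and lower at day 14 (-0.80), and Enpp5 was lower at day 14 (-1.88).

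Of the intracellular pyrophosphatases and nucleoside diphosphatases, 5 of 12 were higher and 4 lower at day 1, and 6 were higher and 1 lower at day 14. Entpd7 was lower at day 1 (-0.88) and higher at day 14 (0.74), whereas Lhpp, a phosphatase that can act on pyrophosphate, was higher at day 1 (0.99) and lower at day 14 (-2.37). Entpd6 was higher at both days (0.45 and 0.43). Prune1 was lower at day 1 (-0.59) and Nt5c3 higher at day 14 (0.48). Some of these calls were near the threshold: the day 14 calls of Entpd6 and Nt5c3 were lost without any of 5 of the 6 libraries (adjusted p up to 0.108), with log2 fold changes of 0.38 to 0.49 for Entpd6 and 0.39 to 0.66 for Nt5c3 over all such fits. The call of Entpd7 was lost without KO replicate 2 or 3 (0.0599 to 0.0812), and the day 1 call of Lhpp was lost without WT replicate 3 (0.0684).

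Among channels and transporters that release ATP, 1 of 8 was higher and 4 were lower in KO cells at day 1, and 4 of 8 were higher and none lower at day 14. Abcc1 was lower at day 1 (-0.70) and higher at day 14 (0.41). Lrrc8a, a subunit of volume-regulated anion channels, was lower at day 1 (-0.76), and the pannexin Panx1 was higher at day 14 (0.71). The connexin Gjc1 was higher at both days (0.49 and 0.47), its day 14 call being lost without any of 5 of the 6 libraries (adjusted p = 0.0630 to 0.116). Of the phosphate carriers, the exporter Xpr1 was lower at day 1 (-0.35) and higher at day 14 (0.43), and the importer Slc20a1 was lower at day 14 (-0.31), a call lost without 1 of 4 libraries (adjusted p = 0.0593 to 0.119). Slc20a1 was not called at day 1.

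Of the purine receptors, 2 of 8 were higher and 4 lower in KO cells at day 1, and 2 of 9 higher and 2 lower at day 14. The ATP-gated channel P2rx1 averaged 0.289 CPM in KO and 2.64 CPM in WT cells at day 1, and 2.06 CPM in KO and 0.336 CPM in WT cells at day 14, so its difference too was of opposite sign at the days (-3.18, adjusted p = 2.28e-05, and 2.66, adjusted p = 0.00273). P2rx4 was lower at day 1 (-0.33) and higher at day 14 (1.06), and P2rx7 the other way (0.90 and -1.04). P2rx3 was higher at day 1 (1.12). Among adenosine receptors, Adora2b was lower at day 1 (-1.45) and Adora2a lower at day 14 (-1.46), the second call being lost without KO replicate 1 or 2 (adjusted p = 0.0654 and 0.0629).

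Of the genes of adenosine uptake and conversion, which act on the product of Nt5e, 2 of 10 were higher and 3 lower in KO cells at day 1, and 4 were higher and 2 lower at day 14. Slc29a1, the equilibrative nucleoside transporter ENT1, averaged 55.0 CPM in KO and 123 CPM in WT cells at day 1 (-1.15, adjusted p = 4.64e-09), and 264 CPM in KO and 45.7 CPM in WT cells at day 14 (2.52, adjusted p = 3.78e-07). The concentrative transporter Slc28a2 went the other way at low levels: it averaged 1.77 CPM in KO against 0.0472 CPM in WT cells at day 1 and 0.123 CPM in KO and 1.69 CPM in WT cells at day 14. Its fold change at day 1 (4.97, adjusted p = 2.38e-05) rests on 4 counts in the WT libraries and was 8.23 at the highest when 1 library was left out. Ampd2 was lower at day 1 (-0.94) and higher at day 14 (0.53), Ampd3 the reverse (0.46 and -1.21), and Adal was higher at day 14 (0.99).

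Markers of other cell types moved with genotype and day beside these genes. The summed level of 8 adventitial fibroblast markers was 245 to 367 CPM in KO and 565 to 571 CPM in WT libraries at day 1, and 683 to 762 CPM in KO and 508 to 698 CPM in WT libraries at day 14. Of 6 tested fibroblast genes, 1 was called higher and 5 lower in KO cells at day 1, and of 5 at day 14, 2 were higher and 2 lower. The summed level of 7 osteoblast and chondrocyte markers was 2.998 to 4.14 CPM in KO and 0.923 to 1.70 CPM in WT libraries at day 1, and 1.62 to 2.05 CPM in KO and 2.20 to 2.86 CPM in WT libraries at day 14. Dmp1 had no count in KO cells at day 1 and Acan none in WT cells at day 1. The sum of 6 endothelial markers was 4.62 to 6.49 CPM in KO and 13.6 to 16.1 CPM in WT libraries at day 1, and 7.06 to 8.33 CPM in KO and 7.95 to 10.2 CPM in WT libraries at day 14, and Tie1 had no count in WT cells at day 1. That of 9 leukocyte markers was 60.7 to 73.2 CPM in KO and 60.2 to 65.8 CPM in WT libraries at day 1, and 50.3 to 54.3 CPM in KO and 64.6 to 95.8 CPM in WT libraries at day 14, with C1qa and C1qb at 0 counts in KO cells at day 14 and WT cells at day 1. The sum of 5 Schwann cell markers was 9.55 to 10.2 CPM in KO and 4.71 to 5.63 CPM in WT libraries at day 1, and 2.32 to 4.14 CPM in KO and 9.504 to 17.4 CPM in WT libraries at day 14, and Sox10 had no count in KO cells at day 1. The osteoblast and Schwann sums had the order of Alpl, higher in KO at day 1 and lower at day 14, with no overlap. The osteoblast sum held at most 1 gene at 1 CPM or more in any group. Of its 2 tested genes, 1 was called higher at day 1, and 1 was higher and 1 lower at day 14. Sp7 had 5 counts in KO and 16 in WT cells at day 1. Of 2 tested Schwann genes, 2 were higher at day 1 and 1 was lower at day 14. The leukocyte sum had the order of Alpl by its medians (68.4 CPM in KO and 65.3 CPM in WT libraries at day 1, 53.9 CPM in KO and 91.0 CPM in WT libraries at day 14). Of its genes, Cd68 was called both ways (log2 fold change 1.15 at day 1, adjusted p = 2.39e-06, and -0.92 at day 14, adjusted p = 0.00373). In WT cells at day 1 the median of Cd68 was 21.5 CPM, the smaller part of the sum. The leukocyte genes did not move together. Of 3 tested at day 1, 2 were called higher and 1 lower, and of 4 at day 14, 1 was higher and 1 lower. Csf1r was 2.53 to 3.10 CPM in KO and 0.900 to 1.34 CPM in WT libraries at day 14, opposite to Cd68. The smooth muscle sum of 10 markers was 1341 to 1544 CPM in KO and 1046 to 1105 CPM in WT libraries at day 1, and 2078 to 2492 CPM in KO and 1174 to 1935 CPM in WT libraries at day 14. Of 7 tested smooth muscle genes, 4 were called higher and 1 lower at day 1, and 2 higher and 2 lower at day 14. Of the endothelial genes, 1 of 2 tested was higher and 1 lower at day 1, and of 3 at day 14, 0 were higher and 2 lower. The part of these markers in the results was not tested.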

How the data were processed

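The deposited values are raw counts of reads per gene, 1 table per day, which the authors made from total RNA libraries of a NEBNext Ultra kit, per the labels' protocols. The submitters' processing notes name the mm9 genome build; the aligner, the counter, the annotation and any use of strand were not given in the sources used here. Control columns (headed CTR) were taken for WT, and each table supplied its day. Repeated lines (43 at day 1, 53 at day 14) were removed; 26 names in each table are date-like, as spreadsheets make of gene symbols. Totals ran from 13848199 to 30105118 counts a library.

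Each day was fitted on its 6 libraries and comparisons across days on all 12, with genes named in both tables: edgeR 4.0.16 (R 4.3.3) quasi-likelihood tests on the counts, trimmed mean (TMM) scaling, filterByExpr and Benjamini-Hochberg adjustment over all tested genes, called below 0.05. Adjusted p-values and log2 fold changes with SE in the text come from these fits. CPM use the 12-library TMM scale. Intervals are 95% exact counting intervals. Exon lengths are from GENCODE M21 and promoters from RefSeq, both on GRCm38, not the build of the files, and were matched by symbol. The fits were also run on simulated counts in which few genes were altered. Most genes differed at day 1 in the real data, so those runs do not cover that setting. Alternatives were DESeq2 1.42.0, other scalings, no filter, 1 fit of all libraries, a replicate block and each library left out.

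The genes, lists and markers were chosen with earlier results of these data known. Named besides the 8 genes and Nr4a3 are, per list and KO against WT comparison, up to 2 rising and 2 falling called genes with the largest change and a mean of at least 1 CPM, and the 2 genes most like each tested member (mean log2 CPM of at least 1).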

Additional observations from a re-analysis of the deposited data

Results flagged for a closer look

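The KO effect differed between day 14 and day 1, by the test of that difference in the 12-library edgeR fit, for 4 of the 6 tested genes, where it did for 60.1% of all tested genes, and for Nr4a3. The difference (day 14 minus day 1, log2) was 6.17 for Enpp1 and 2.74 for Ank, and the KO libraries of both were all below WT at day 1 and all above WT at day 14. It was -11.79 for Alpl, whose KO libraries were all above WT at day 1 and all below at day 14, and -2.75 for Phospho1 (adjusted p = 0.00134), where the day 1 effect was not past the test. For Nr4a3 it was -1.23 (adjusted p = 0.00182), with all KO libraries below WT at both days.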

How the results depend on the processing

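Of 551 values of the 6 tested genes under the alternatives, 529 kept their side of the threshold, 10 lost a call, 10 gained one and 2 reversed. Changes of sign where neither fit was called are counted among the 529. Ppa1 reversed without WT day 14 replicate 1, to -0.26 (adjusted p = 0.00276) for day 14 against day 1 in WT cells, over a range of -0.26 to 0.19 on leaving out 1 library, and to 0.25 (adjusted p = 0.00794) for KO day 1 against WT day 14, over a range of -0.21 to 0.25. In that last comparison the members called ranged from 0 to 5 and the genes called from 576 to 5538 (1562 with all) on leaving out 1 library, and 1 member (Enpp1, adjusted p = 0.0331) was called with no filter. For day 14 against day 1 in WT cells, 2 to 5 members were called (4 with all), with 2 left without WT day 1 replicate 1 or 3. Nt5e lost this call also with DESeq2 (adjusted p = 0.0772) and library-size scaling (0.0612), which gave it a change of KO effect of -0.94 (0.0457). The cause was not tested. The replicate numbers were not used as pairs in the main fits. Correlations of deviations between libraries of the same number were weak (-0.0701 to 0.103). Each day 14 library of KO and of WT correlated best with the WT day 1 library of its own number, while no KO library of day 1 did so. With a replicate block 9090 genes were called at day 1, 6716 at day 14 and 9524 for the change, with 4, 5 and 4 members and no member's call changed. Of 2484 values of other named genes, 2332 stayed, 98 lost and 54 gained a call. Depth limits Abcc6, Entpd1, Phospho1 and Alpl in WT cells at day 1, all with few reads.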
